A study of Mus musculus with 77 samples.

Results

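Chromosome 14 of the mouse is described here as the deposited profiles show it in single blastomeres of cloned embryos. All 80-kb bins assigned to chromosome 14 were taken, 1564 of the 32973 bins in the table, without selecting among them by value. This chromosome was chosen with earlier results of these data known. The chromosome was divided at 75 Mb, with 626 bins from 75 Mb to the end, called the distal part, and 938 below 75 Mb, called the proximal part. Coordinates are those of the mm9 build. A replication call was made in at least 1 cell for 1509 of the bins and in every cell for 884, and a cell had calls in 1009 to 1502 of them. The 55 bins without any call include the centromeric end, as the first called bin starts at 2960001 and the last ends at 125120000.

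The embryos were clones, obtained by moving the nucleus of a body cell into an egg without one of its own (somatic cell nuclear transfer, SCNT). Their strain is labelled BDF1, and they were grown in vitro in CZB, an embryo culture medium. The 8-cell group has 49 cells from 12 embryos, and the 4-cell group has 28 cells from 14 embryos. All embryos of both groups are SCNT embryos, so no fertilised embryo is among the groups described. The labels used here do not name the donor cell type. Single-cell replication sequencing (scRepli-seq) reads the DNA copy number along the genome of 1 cell, and the authors turned it into a state for each bin, replicated or not replicated. The share of called autosomal bins in the replicated state is the cell's replication score. Comparisons were made in mid-S cells, here those with a score of 30% to 70%, and the embryo was the replicate.

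Mammalian chromosomes replicate in domains, with gene-rich and active chromatin copied early in S phase and gene-poor, lamina-associated chromatin copied late. The order is set up during early development and differs between cell types. Long neuronal genes in gene-poor surroundings are typical inhabitants of late domains. In the RefSeq annotation of GRCm38.p6, a later build than that of the profiles, chromosome 14 carries 850 protein-coding genes. Of these, 736 lie before Htr2a, a serotonin receptor gene placed at the 75-Mb division, and 114 lie from Htr2a on. The first of these stretches holds 39 olfactory receptor genes and the second holds 0.

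The chromosome carries a microRNA cluster in each part, and their sequences are shown because both are well-known landmarks that replicated at different times. MicroRNAs are short RNAs that find their targets through the seed, bases 2 to 8. The miR-17-92 cluster, which promotes cell growth, lies in the distal part beside Gpc5. The miR-15a/16 cluster, which restrains the cell cycle, lies in the Dleu2 gene of the proximal part. The mature RefSeq sequences follow, with the seed in capitals, grouped by shared seed.
miR-17-5p: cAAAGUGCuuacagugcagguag
miR-20a-5p: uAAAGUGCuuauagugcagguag
miR-18a-5p: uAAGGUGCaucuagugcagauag
miR-19a-3p: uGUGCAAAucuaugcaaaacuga
miR-19b-3p: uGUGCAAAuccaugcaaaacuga
miR-92a-3p: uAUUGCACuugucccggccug
miR-15a-5p: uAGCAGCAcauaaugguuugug
miR-16-5p: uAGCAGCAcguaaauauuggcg

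Gene loci named here were placed on mm9 from memory, to about 0.1 Mb, and were not read from an mm9 annotation, so which bin holds a gene's edge is uncertain and values of a named locus are those of its surroundings. Both microRNA host genes were added to the gene list after values had been seen. The locus of Mir17hg, the miR-17-92 host gene, was 6.82% ± 8.55 replicated in 8-cell embryos (SD, n = 10) and 18.2% ± 24.6 in 4-cell embryos (SD, n = 9). The Dleu2 locus, with the proximal cluster, was 80.7% ± 19.2 replicated in 8-cell embryos and 82.3% ± 22.1 in 4-cell embryos. The distal cluster thus had the lower mean at both stages, and its embryos ranged up to 26.9% for the 8-cell and 69.2% for the 4-cell embryos.

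Promoters of a pair of distal genes whose loci differed in mean replicated percent are shown to set sequence beside timing. Spry2 encodes an inhibitor of receptor tyrosine kinase signalling, and its 1-Mb window was called neither earlier nor later than the autosomes at either stage (limma adjusted p = 0.651 in 8-cell and 0.392 in 4-cell embryos). Gpc5 encodes a cell-surface glypican and had a lower locus mean, given below. Each promoter is shown from 250 bases before to 50 after the gene's start in RefSeq, GRCm38.p6, with CG dinucleotides in capitals. That of Spry2 is chr14:105896770-105897069 on the minus strand, and that of Gpc5 is chr14:115091965-115092264 on the plus strand.
Spry2: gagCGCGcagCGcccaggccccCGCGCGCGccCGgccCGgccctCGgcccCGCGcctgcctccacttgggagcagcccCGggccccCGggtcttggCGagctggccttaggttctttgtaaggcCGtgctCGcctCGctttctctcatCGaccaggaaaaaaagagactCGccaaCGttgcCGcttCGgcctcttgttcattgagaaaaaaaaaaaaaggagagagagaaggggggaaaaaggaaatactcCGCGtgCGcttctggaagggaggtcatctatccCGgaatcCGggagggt
Gpc5: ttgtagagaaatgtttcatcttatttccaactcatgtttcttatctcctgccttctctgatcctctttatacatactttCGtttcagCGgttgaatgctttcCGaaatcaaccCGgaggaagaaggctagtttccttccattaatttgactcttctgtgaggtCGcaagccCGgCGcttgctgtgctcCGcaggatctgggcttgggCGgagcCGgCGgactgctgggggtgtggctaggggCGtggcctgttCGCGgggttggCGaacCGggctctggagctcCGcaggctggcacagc

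The Spry2 promoter holds 28 CG dinucleotides and that of Gpc5 holds 17. Over 101 protein-coding genes from Htr2a on with a listed promoter the median was 17, over 574 genes before Htr2a it was 8.5, and over 17491 genes of all chromosomes it was 13. At least 10 CG dinucleotides were found in 70.3% of the promoters from Htr2a on, in 48.3% of those before it and in 57.2% of all. These counts describe the listed letters only.

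The libraries of 2 embryos stood apart on this chromosome and are given before the results. In 4-cell embryos 1 and 6, the mid-S cells carried stretches of chromosome 14 of 23.4 to 61.4 Mb in 1 state, and the paired cells of the same embryo carried opposite states. In embryo 1, cell 1 was replicated without interruption from 40400001 to 77520000, and cell 2 was not replicated from 50240001 to 111600000. The stretch of cell 2 spans 767 bins, of which 405 were called, and cell 2 had the fewest calls of any cell on the chromosome. In embryo 6, cell 4 was replicated from 4160001 to 42080000, and cell 2 was not replicated from 3920001 to 60160000. The cell pairs of embryos 1 and 6 had opposite states in 65.3% and 53.2% of the bins called in both cells. In 48 other pairs of mid-S cells from the same embryo, over 14 embryos, that share was 8.4% to 46.8% with a median of 20.1%. What gave rise to these stretches was not tested. The difference between the parts and the counts of windows and loci at the extremes are given with and without these embryos. So are the windows and loci whose 4-cell mean moves by over 1.5 times.

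The distal part was less replicated than the rest of the genome at both stages, and the proximal part stood close to it. In 10 8-cell embryos the part from 75 Mb was 15.1% to 47% replicated, with a median of 24.5% and a mean of 27.9% ± 9.81 (SD). In the same embryos the part below 75 Mb was 36.4% to 61.3% replicated, with a mean of 48.8% ± 8.39. In 9 4-cell embryos the part from 75 Mb was 20.6% to 46.1% replicated, with a median of 35.1% and a mean of 33.7% ± 7.72. Their part below 75 Mb was 39.9% to 71.2% replicated, with a mean of 55.4% ± 9.88. The autosomes of the same cells stood at 49.7% ± 8.09 in 8-cell embryos and 54.5% ± 8.99 in 4-cell embryos, and levels below are to be read against these.

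**Figure D1:**
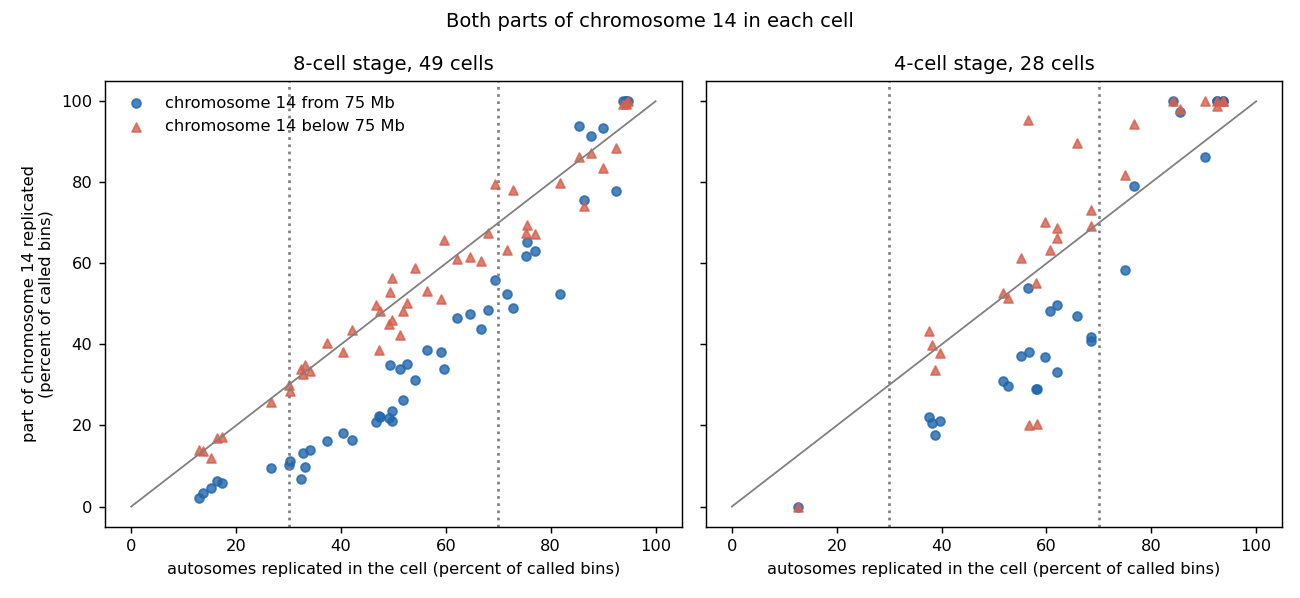
Each cell is drawn as a circle for chromosome 14 from 75 Mb and as a triangle for chromosome 14 below 75 Mb, with the replicated percent of its autosomes on the x axis and that of the part on the y axis. The grey diagonal marks equal values and the dotted lines enclose mid-S cells: in all 28 mid-S cells of the 8-cell stage the circle lies below the triangle, and in 16 of 18 at the 4-cell stage.

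Relative to the autosomes of the same cell, the part from 75 Mb lay at -21.7 ± 3.21 points in 8-cell embryos (SD, n = 10) and at -20.8 ± 5.65 points in 4-cell embryos (SD, n = 9). It was below 0 in 10 of 10 8-cell and in 9 of 9 4-cell embryos. The part below 75 Mb lay at -0.834 ± 3.75 points in 8-cell embryos and at 0.907 ± 4.14 points in 4-cell embryos, with embryos on both sides of 0. Among the 39 parts made by dividing every chromosome at 75 Mb, the distal part of chromosome 14 had the lowest mean at both stages. The next lowest was chromosome 4 below 75 Mb at the 8-cell stage, at -15.4 points, and chromosome X from 75 Mb at the 4-cell stage, at -17 points, closer to chromosome 14 than the SD of its embryos.

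Within an embryo, the replicated percent from 75 Mb minus that below 75 Mb was -20.9 ± 6.07 points at the 8-cell stage (SD, n = 10 embryos, range -32.7 to -14.1). At the 4-cell stage the difference was -21.7 ± 6.91 points (SD, n = 9 embryos, range -34.4 to -11.6). Both passed the test against 0, with a limma adjusted p of 1.04e-09 in 8-cell embryos and 1.47e-09 in 4-cell embryos over 19 chromosomes. That test pools the spread over chromosomes. An exact sign-flip test over embryos gave an adjusted p of 0.00371 in 8-cell and 0.0148 in 4-cell embryos over the same 19 chromosomes. Of these chromosomes 63.2% differed between their parts in 8-cell embryos and 73.7% in 4-cell embryos, and a lower value from 75 Mb, as on chromosome 14, was called in 21.1% in 8-cell and 26.3% in 4-cell embryos. A difference between parts was thus common among chromosomes, and the mean of chromosome 14 was the most negative of the 19 at both stages. Without 4-cell embryos 1 and 6 the difference was -23.8 ± 6.17 points (SD, n = 7).

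No stage difference of the chromosome's parts passed the test. The 8-cell value minus the 4-cell value was 0.779 points for the difference between the parts (SE 3.04, limma adjusted p = 0.963), a contrast in which 5.26% of chromosomes passed. For the level against the autosomes it was -0.962 points from 75 Mb (SE 2.15, limma adjusted p = 0.858) and -1.74 points below 75 Mb (SE 1.97, limma adjusted p = 0.67). Among all 39 parts 0 passed, or 0%. The 4-cell embryos come from both batches. Their difference between the parts was -23.2 ± 10.7 points in 4 embryos of the batch that also holds the 8-cell cells, and -20.5 ± 2.49 points in 5 embryos of the batch with 4-cell cells only. The names of the 8-cell cells, all in the former batch, carry different prefixes, and values were not compared between these name sets.

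**Figure D2:**
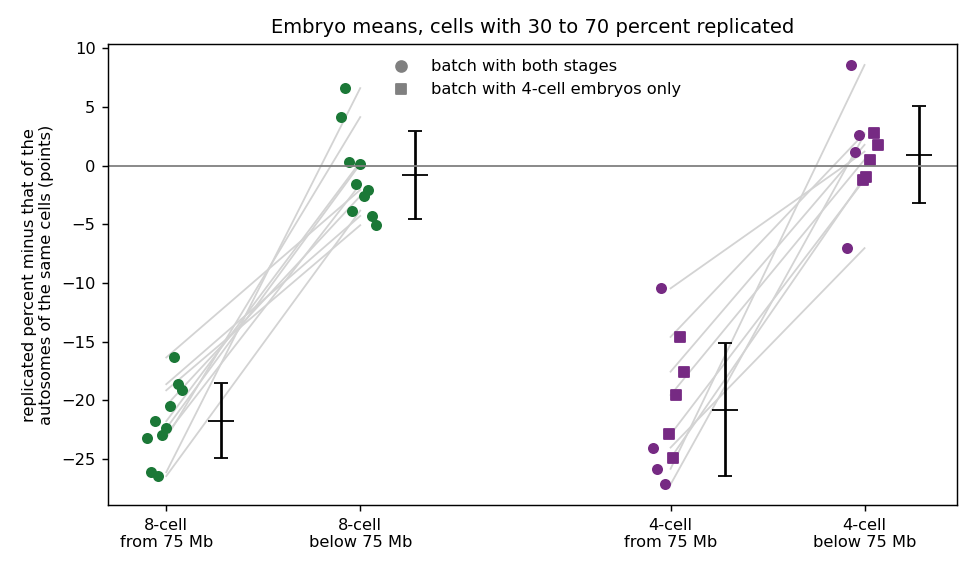
Each point is 1 embryo, with the replicated percent of a part of chromosome 14 minus that of the autosomes of the same mid-S cells on the y axis, and lines join the parts of 1 embryo. Black bars give the mean ± SD of 10 8-cell and 9 4-cell embryos: the part from 75 Mb has means of -21.7 and -20.8 points, and the part below 75 Mb has means of -0.834 and 0.907 points.

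Unreplicated stretches were on average longer in the distal part. The median unreplicated run in a mid-S cell, averaged per embryo, was 1.29 ± 0.467 Mb from 75 Mb and 0.815 ± 0.136 Mb below 75 Mb at the 8-cell stage (SD, n = 10). At the 4-cell stage it was 1.34 ± 0.284 Mb from 75 Mb and 0.968 ± 0.577 Mb below it (SD, n = 9). Replicated runs showed the opposite order, with 0.522 ± 0.15 Mb from 75 Mb and 0.799 ± 0.219 Mb below 75 Mb at the 8-cell stage. The 4-cell values were 0.766 ± 0.241 Mb from 75 Mb and 1.67 ± 1.15 Mb below it. Runs were assigned to the part in which they start. The 4-cell values below 75 Mb, unreplicated as well as replicated, thus include long stretches of embryos 1 and 6. Run lengths move with the replicated share of a part, and they are given as a description with no test.

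Along the chromosome, 118 windows of 1 Mb could be measured, 50 from 75 Mb and 68 below it. At the 8-cell stage 37 of the 50 distal windows were later than the autosomes and 5 were earlier (limma adjusted p under 0.05 over 2536 windows). Of all windows 38.6% were called later and 35.1% earlier at that stage. In the proximal part 28 of 68 windows were later and 24 earlier, or 41.2% and 35.3%. At the 4-cell stage 32 of 50 distal windows were later and 5 earlier, and 21 of 68 proximal windows were later and 23 earlier, where 34.9% of all windows were later and 36% earlier. All 32 distal windows that were later at the 4-cell stage were also later at the 8-cell stage, and the 5 earlier ones were the same at both. These calls were not repeated without 4-cell embryos 1 and 6 alone. Leaving out cells with a run of 30 Mb or more in 1 state removes 4-cell embryos 1, 3 and 6. The later windows at the 4-cell stage were then 31 of 50 distal and 21 of 66 proximal. The median distal window lay at -30.7 points against the autosomes in 8-cell embryos and at -28.4 points in 4-cell embryos, whereas the median of all windows was -1.59 points in 8-cell embryos and -0.169 points in 4-cell embryos.

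**Figure D3:**
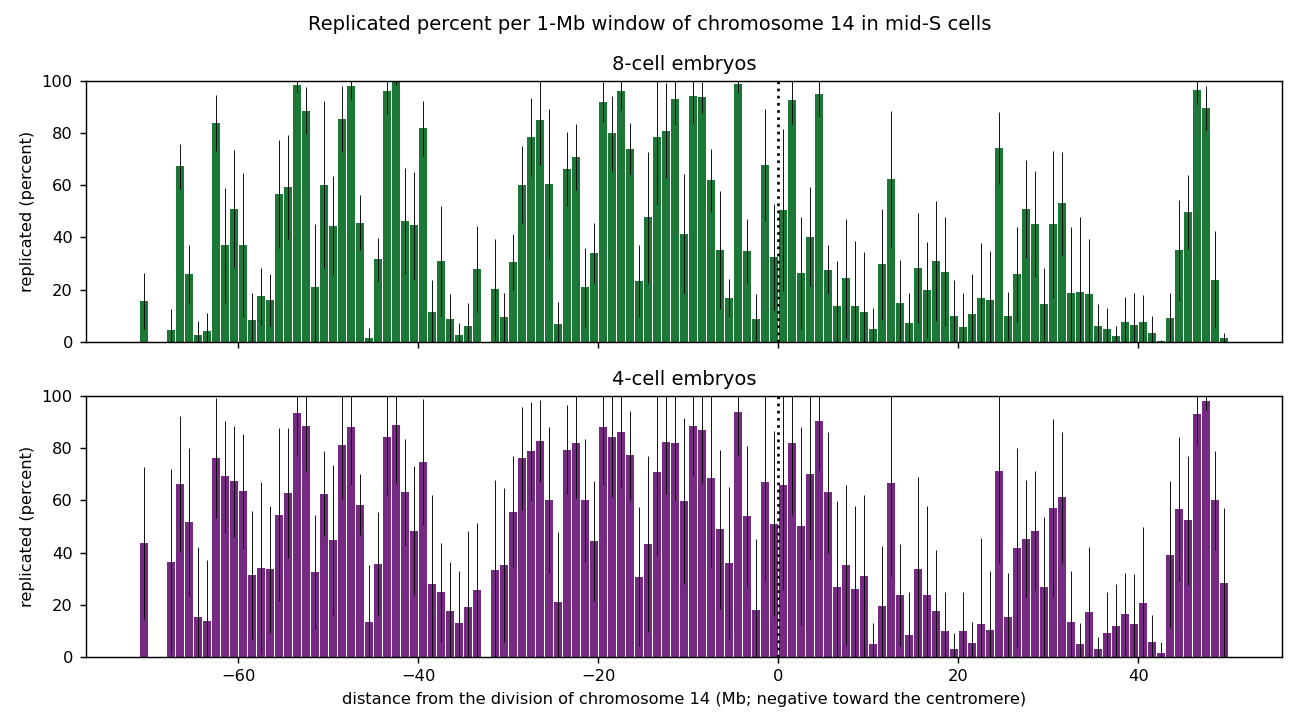
Bars give the mean replicated percent of each 1-Mb window of chromosome 14 in mid-S cells of 10 8-cell embryos (upper panel) and 9 4-cell embryos (lower panel), with SD as thin lines cut at 0 and 100 percent. The x axis is the distance in Mb from the division, so the distal part lies right of the dotted line: low bars prevail there, broken by a few early windows, the last pair of them at means of 96.7% and 89.6% in 8-cell embryos.

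Windows were ranked by the mean of both stage means, and the latest of the chromosome lay at Gpc6, a glypican gene. The window from 117000001 to 118000000 was 0.119% ± 0.376 replicated in 8-cell embryos (SD, n = 10, highest 1.19%) and 1.39% ± 4.17 in 4-cell embryos (SD, n = 9, highest 12.5%). In 9 of 10 8-cell embryos and in 8 of 9 4-cell embryos it was at 0, and the 4-cell exception was embryo 1. Its neighbour from 116000001 to 117000000, over most of which Gpc5 extends, stood at 3.33% ± 6.4 in 8-cell embryos and at 5.77% ± 10.4 in 4-cell embryos. The other windows among the 5 latest of the distal part by that rank lay at 85000001, 94000001 and 110000001. They were 4.72%, 9.73% and 6.02% replicated in 8-cell embryos and 4.86%, 2.99% and 2.99% in 4-cell embryos. In 8-cell embryos alone, the windows at 124000001 and 112000001 were lower than these, at 1.33% and 2.31%. The window at 94000001 overlaps one end of Pcdh9, a protocadherin gene of neuronal adhesion.

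Early islands interrupt the distal part. The window from 121000001 to 122000000 was 86.1% to 100% replicated in 8-cell embryos, with a mean of 96.7% ± 5.41, and 70.8% to 100% in 4-cell embryos, with a mean of 93.1% ± 11.8. The next window, which holds Zic2 and Zic5, zinc-finger factors of early neural development, was at 89.6% ± 8.32 in 8-cell embryos and at 98.1% ± 3.33 in 4-cell embryos. The island thus starts 4 Mb beyond the start of the Gpc6 window. Near the division, the windows at 76000001 and 79000001 were at 92.9% ± 9.18 and 95.2% ± 8.48 in 8-cell embryos, against 82.1% ± 27.8 and 90.5% ± 18.7 in 4-cell embryos. The window at 99000001 holds Klf5, a Krüppel-like factor at work in the blastocyst, and stood at 74.5% ± 13.8 in 8-cell embryos and at 71.3% ± 35.5 in 4-cell embryos. All 5 were earlier than the autosomes at both stages, the Klf5 window with a limma adjusted p of 0.00305 in 8-cell embryos and 0.04997 in 4-cell embryos.

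The proximal part also held late windows, and its 5 latest by the same rank had 8-cell means of 1.25% to 6.15%. The window at 7000001 is not among them, with 4.4% in 8-cell embryos and 36.5% in 4-cell embryos. The window from 29000001 to 30000000 holds the signalling ligand gene Wnt5a and one end of the calcium channel gene Cacna2d3. It was 1.25% ± 3.95 replicated in 8-cell embryos (SD, n = 10) and 13.4% ± 21.8 in 4-cell embryos (SD, n = 9). In 9 of 10 8-cell embryos it was at 0. Without 4-cell embryos 1 and 6 its 4-cell mean was 2.98% ± 7.87 (n = 7). Both windows overlapping Fhit, a long gene whose human copy spans a common fragile site, were at 2.53% and 4.05% in 8-cell embryos and at 15.2% and 13.9% in 4-cell embryos. The pair overlapping Nrg3, a neuregulin gene, stood at 2.71% and 6.15% in 8-cell embryos and at 13% and 19.2% in 4-cell embryos. At Nrg3 the 4-cell means without embryos 1 and 6 were 9.52% and 8.79% (n = 7). Against these, the earliest proximal windows began at 21000001, 27000001, 32000001, 65000001 and 70000001. They were 94.1% to 99.6% replicated in 8-cell embryos and 88% to 94% in 4-cell embryos, or 92.3% to 100% without 4-cell embryos 1 and 6, and the first of them holds Vcl, the gene of the adhesion protein vinculin.

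Windows at the extremes were counted in each part. At most 10% replicated on average were 15 of 50 distal and 11 of 68 proximal windows at the 8-cell stage, against 11 distal and 0 proximal windows at the 4-cell stage. Without 4-cell embryos 1 and 6 the 4-cell counts were 13 distal and 4 proximal windows, so the proximal count of 0 rests on those embryos. At least 90% replicated were 3 distal and 10 proximal windows at the 8-cell stage, against 3 distal and 2 proximal windows at the 4-cell stage. Without 4-cell embryos 1 and 6 these were 3 distal and 12 proximal windows. Over the whole genome 13.4% of windows were at most 10% replicated in 8-cell embryos and 5.88% in 4-cell embryos, and 13.7% were at least 90% replicated in 8-cell embryos and 11.6% in 4-cell embryos. The proximal 8-cell shares, 16.2% at most 10% and 14.7% at least 90% replicated, were near those of the genome.

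The loci of 53 listed genes, each taken with 0.5 Mb on either side, were ordered along the chromosome. Of 29 distal loci, 15 were less than 20% replicated on average in 8-cell embryos and 9 in 4-cell embryos. More than 60% replicated were 4 of them in 8-cell embryos and 6 in 4-cell embryos. Of 24 proximal loci, 5 were less than 20% replicated in 8-cell embryos and 2 in 4-cell embryos, and 14 were more than 60% replicated in 8-cell embryos and 16 in 4-cell embryos. The median distal locus was at 19.6% in 8-cell embryos and 34.6% in 4-cell embryos, and the median proximal locus at 66.1% in 8-cell embryos and 68.1% in 4-cell embryos. Neighbouring loci overlap, so they are not independent. Without 4-cell embryos 1 and 6 the 4-cell mean moved by over 1.5 times at 4 loci, to 2.2% at Wnt5a, 9.26% at Nrg3, 4.37% at Klhl1 and 4.96% at Dach1. The 4-cell counts were then 10 distal and 3 proximal loci under 20%, and 6 distal and 14 proximal loci over 60%.

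Several late distal loci hold genes of neuronal adhesion and synapses. Slitrk1, Slitrk5 and Slitrk6 encode leucine-rich repeat proteins of the neuronal membrane. Slitrk5 was 2.5% ± 3.4 replicated in 8-cell embryos and 11.1% ± 17.4 in 4-cell embryos. For Slitrk6 the means were 8.39% ± 11.5 in 8-cell embryos and 5.93% ± 12.1 in 4-cell embryos. Slitrk1 stood at 19.6% ± 23.9 in 8-cell embryos and at 19.2% ± 27.5 in 4-cell embryos, with single embryos between 0% and 65.4%. The protocadherin genes, whose products mediate contact between cells, did not all replicate alike. Pcdh17 was at 9.31% ± 18.1 in 8-cell embryos and 21.9% ± 20.1 in 4-cell embryos, and Pcdh20 at 8.54% ± 15.2 in 8-cell and 17.5% ± 18.4 in 4-cell embryos. Pcdh9 had 21.3% ± 18.4 in 8-cell embryos and 6.83% ± 9.07 in 4-cell embryos. Pcdh8 was far earlier on average, with 57.9% ± 9.31 in 8-cell embryos and 80.6% ± 16.2 in 4-cell embryos. The brain actin-binding protein gene Klhl1 stood at 9.45% ± 14.4 in 8-cell embryos and 6.79% ± 10.7 in 4-cell embryos.

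Transcription factor genes of the distal part covered a wide range. Klf5 was 69% ± 12.5 replicated in 8-cell embryos and 69.7% ± 31.7 in 4-cell embryos. Its neighbours on both sides were lower: Klf12, a repressor of the same family, was at 22.1% ± 9.14 in 8-cell and 28.2% ± 19.9 in 4-cell embryos, and the developmental regulator Dach1 at 18.3% ± 20.8 in 8-cell and 12.2% ± 24.3 in 4-cell embryos. Pou4f1, a factor of sensory neurons, stood at 8.49% ± 11 in 8-cell embryos and 29.1% ± 20.1 in 4-cell embryos. Sox21, a neural factor next to Gpc6, had 13.9% ± 8.55 in 8-cell embryos and 44.9% ± 28.4 in 4-cell embryos. The locus of Zic2 and Zic5 was at 69.1% ± 18.2 in 8-cell embryos and 92.7% ± 11.6 in 4-cell embryos, the highest mean among distal loci at both stages.

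Receptors, enzymes and signalling genes of the distal part lay mostly between these extremes. Htr2a, at the division, was 29.7% ± 21.5 replicated in 8-cell embryos and 46.8% ± 32.9 in 4-cell embryos. Ednrb, the endothelin receptor of pigment and enteric nerve cell precursors, stood at 33.4% ± 19.7 in 8-cell embryos and 41.9% ± 28.4 in 4-cell embryos. Dct, a melanin synthesis enzyme gene beside Gpc6, was at 8.01% ± 8.32 in 8-cell embryos and 34.6% ± 25.7 in 4-cell embryos. Hs6st3, which encodes a heparan sulfate sulfotransferase, had 36.6% ± 14.8 in 8-cell embryos and 51.2% ± 25.5 in 4-cell embryos. Spry2, whose promoter is shown above, stood at 65.7% ± 25.9 in 8-cell embryos and 69.7% ± 27.9 in 4-cell embryos. Over their whole loci, Gpc5 was at 4.3% ± 4.44 in 8-cell and 10.6% ± 15.2 in 4-cell embryos, and Gpc6 at 2.96% ± 4.55 in 8-cell and 16.8% ± 14.4 in 4-cell embryos.

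Several listed proximal loci had means of about 90% or more in 8-cell embryos. Vcl was 98.5% ± 2.64 replicated in 8-cell embryos and 93.3% ± 16.6 in 4-cell embryos. Tkt, of the pentose phosphate pathway, was at 94.2% ± 10.8 in 8-cell embryos and 82.5% ± 22 in 4-cell embryos. The cardiac myosin genes Myh6 and Myh7, which share 1 locus, stood at 91% ± 8.91 in 8-cell embryos and 87.3% ± 21.7 in 4-cell embryos, and their neighbour Cebpe, a granulocyte factor, at 94.4% ± 5.82 in 8-cell and 85.3% ± 21.3 in 4-cell embryos. Kat6b, a histone acetyltransferase gene, had 90% ± 8.12 in 8-cell embryos and 88.9% ± 16.8 in 4-cell embryos.

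Listed proximal regulators of development ranged widely. Otx2, a head patterning factor, was 66.1% ± 30.7 replicated in 8-cell embryos and 62% ± 24.5 in 4-cell embryos. Gata4, a factor of heart and endoderm, stood at 68.8% ± 12.2 in 8-cell embryos and 68% ± 28.5 in 4-cell embryos. Bmp4, a growth factor gene, had 44.6% ± 20.1 in 8-cell embryos and 67.9% ± 16.5 in 4-cell embryos, while its receptor gene Bmpr1a had 83.5% ± 10.6 in 8-cell and 75.6% ± 21.9 in 4-cell embryos. Rb1, the retinoblastoma tumour suppressor gene just below the division, was at 70.2% ± 20.3 in 8-cell embryos and 68.3% ± 36.5 in 4-cell embryos. The retinoic acid receptor gene Rarb was late, with 13.3% ± 9.3 in 8-cell embryos and 33.5% ± 29.8 in 4-cell embryos. Wnt5a was the latest listed proximal locus at both stages, with 0.385% ± 1.22 in 8-cell embryos and 12.8% ± 21.7 in 4-cell embryos.

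**Figure D4:**
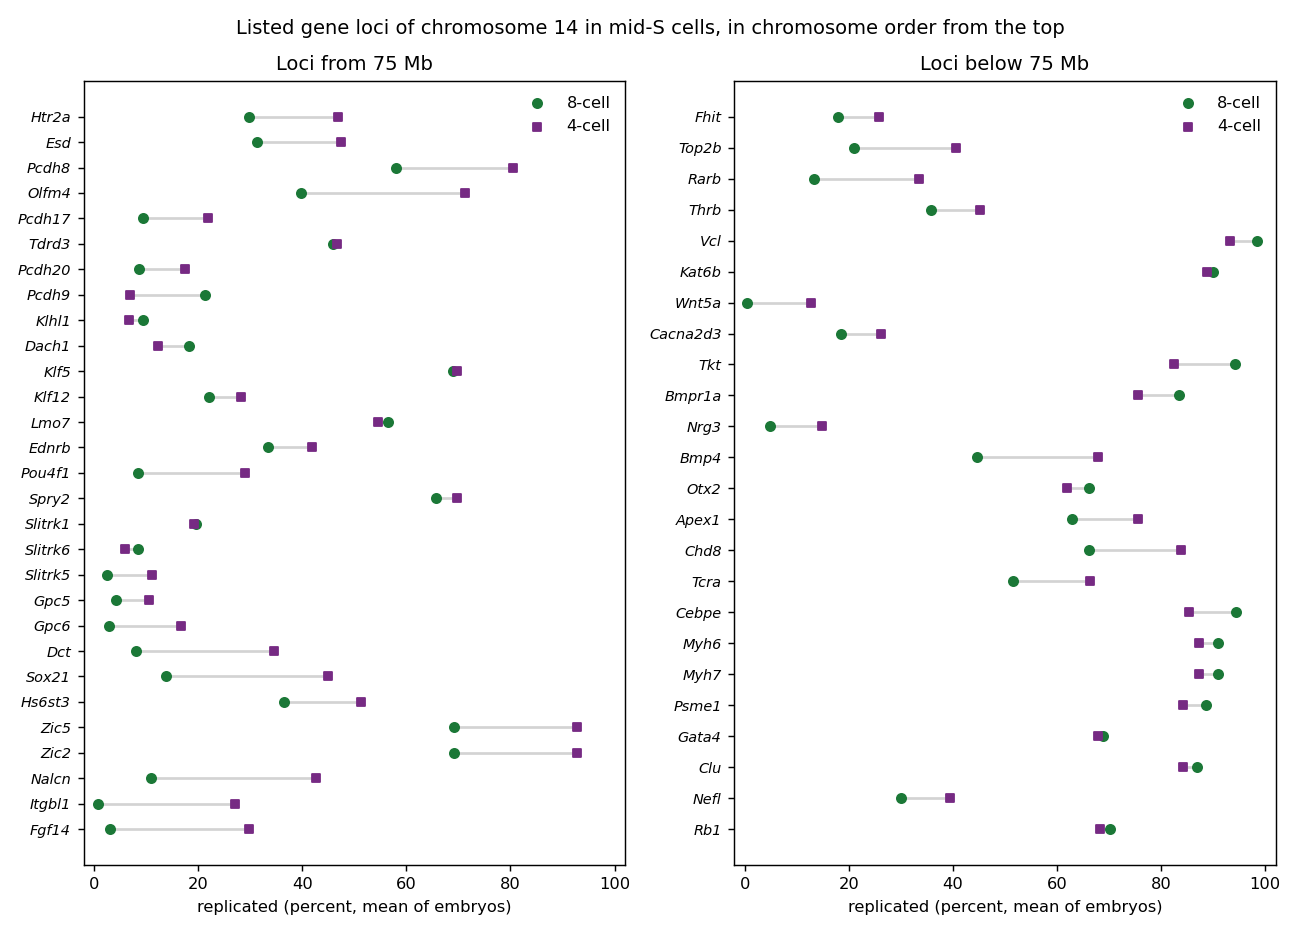
Mean replicated percent of each listed gene locus in mid-S cells, as green circles for 10 8-cell embryos and purple squares for 9 4-cell embryos, in chromosome order from the top. Distal loci (left) cluster at low values apart from Klf5, Spry2, Zic2, Zic5 and a few others, and most proximal loci (right) lie above 60 percent.

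No window of chromosome 14 passed the test between stages. Of the 2536 windows 0.197% passed, all later at the 8-cell stage, and 0 of 118 on chromosome 14 did so (limma with the embryo's autosomal percent as covariate). At an unadjusted p under 0.05 there were 15 of 118 windows, or 12.7%, against 15.5% of all windows. Of those 15 windows, 12 were lower at the 8-cell stage, or 10.2% of the chromosome's windows against 8.2% of all. The windows given next were chosen after their values were seen, as those with the lowest p. From 80000001 to 81000000, with Pcdh8 and the secreted glycoprotein gene Olfm4, 8-cell embryos were 15.4% to 46.2% replicated (median 25%) and 4-cell embryos 34.6% to 100% (median 57.7%). The groups overlapped, with a limma adjusted p of 0.102 for a fitted difference of -34.8 points (SE 8.94). From 53000001 to 54000000, in the T-cell receptor alpha locus, 8-cell embryos were at 20.9% ± 15.2 and 4-cell embryos at 60% ± 23.6 (fitted difference -34.8 points, SE 9.14, limma adjusted p = 0.11, and 0.0385 without 8-cell embryo 2). From 123000001 to 124000000, with the sodium leak channel gene Nalcn, 8-cell embryos were at 23.8% ± 18.6 and 4-cell embryos at 60% ± 18.9 (fitted difference -30.1 points, SE 8.2, limma adjusted p = 0.121).

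At the end of the chromosome the 3 listed neighbours Nalcn, Itgbl1 and Fgf14 had lower means at the 8-cell stage. Nalcn was at 10.9% ± 10.4 in 8-cell embryos and 42.6% ± 18 in 4-cell embryos. Itgbl1, an integrin-beta-like gene, was at 0.784% ± 1.89 in 8-cell and 27.1% ± 22.2 in 4-cell embryos, and Fgf14, which encodes a regulator of sodium channels, at 3.12% ± 3.53 in 8-cell and 29.9% ± 25.2 in 4-cell embryos. The window from 124000001 to 125000000, which covers most of Fgf14, had a fitted difference of -24.8 points (SE 9.02, limma adjusted p = 0.232). Without 4-cell embryos 1 and 6 its 4-cell mean was 17.3% ± 17.4 (n = 7), against 28.4% ± 28.7 with them.

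The order of the parts was followed over cells of rising replication score. In 8-cell cells under 30% replicated, the distal part was lower in 6 of 6 from 4 embryos, by 7.34 to 16.1 points. In mid-S it was lower in 28 of 28 from 10 embryos, with a median difference of -19.8 points. In 15 cells over 70%, from 8 embryos, it was lower in 7, higher in 7 and equal in 1. The differences ran between -29.1 and 9.98 points. Of the higher cells, cells 1 and 2 of embryo 9 and cell 1 of embryo 10 were at 99.3% or more in both parts. The other higher cells were less complete. In embryo 3, cell 1 was at 93.9% from 75 Mb and 86.2% below it, and cell 6 at 91.4% and 87.3%. Cell 1 of embryo 7 was at 93.5% and 83.5%, and cell 4 of embryo 4 at 75.7% and 74.2%. The equal cell, cell 3 of embryo 9, was at 100% in both. The 4-cell cells over 70%, from 5 embryos, had the lower distal value in 4 of 9, the higher in 1, and equal values in 4. The higher one was at 98.9% below and 100% from 75 Mb, and the equal ones were at 100% in both. Cells at 98.9% or more in both parts cannot show an order of the parts. The higher cells of 8-cell embryos 3, 4 and 7 were not so complete, and in them the distal part was ahead. In mid-S 4-cell cells the distal part was lower in 16 of 18, and both exceptions were cells numbered 2 of embryos 1 and 6. The single 4-cell cell under 30% had 0% in both parts.

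In cells with a replication score over 70%, the remaining unreplicated DNA lay in both parts. In 15 8-cell cells over 70%, a median of 11.1 Mb was unreplicated from 75 Mb and 10.9 Mb below it. Single cells had up to 25.5 Mb from 75 Mb and 24.8 Mb below it. The distal part is the smaller, with 626 bins called in any cell against 883 below 75 Mb. The same length in Mb is therefore a larger share of it. In 9 4-cell cells the medians were 0 Mb in both parts, and the highest values were 20.8 Mb from 75 Mb and 11.8 Mb below it. Of these 9 cells, 6 had fewer than 10 changes of state per 1000 called autosomal bins, against 2 of the 15 8-cell cells. Without such cells the 8-cell medians were 12.2 Mb from 75 Mb and 13.5 Mb below it, in 13 cells. The 4-cell medians were then 10.5 Mb from 75 Mb and 3.76 Mb below it, in 3 cells. Stage was not tested here, since the number of embryos is small and the cells differ in how far they have replicated.

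A late run was defined as at least 3 adjacent called bins that were unreplicated in at least 50% of the cells over 70%, averaged per embryo. Late runs were sought on chromosome 14 only, so their share over the whole genome is not known. In 8 8-cell embryos there were 23 late runs with 130 bins, 87 of them below 75 Mb, or 10.2% of the 856 bins assessed there, and 43 from 75 Mb, or 6.87% of 626. The longest spanned 28800001 to 30400000, over Wnt5a and Cacna2d3, with 20 bins and a mean of 59.4% unreplicated. The second spanned 116960001 to 118240000, over Gpc6, with 16 bins and 63.7%. Runs of 8 bins lay at 10560001 to 11200000 at Fhit and at 44720001 to 45360000, where no listed gene lies, with 68% and 63.7% unreplicated. Runs of 7 bins lay at 17920001 to 18480000, between Rarb and the thyroid hormone receptor gene Thrb, and at 36640001 to 37200000. Each of these 6 runs was at least 50% unreplicated in 5 or 6 of 8 embryos, with single embryos at 0% and at 100%. In mid-S 8-cell embryos the same runs were 0% to 3.06% replicated.

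In 5 4-cell embryos the list was empty, as the highest share at any bin was 40%. With the cells of few changes left out, 3 4-cell cells remained, 1 each of embryos 2, 6 and 12. They gave 16 late runs with 134 bins, 98 from 75 Mb and 36 below it. These are 15.7% and 4.39% of the bins assessed in those parts. The same step left 13 8-cell cells of 7 embryos, with 28 runs and 213 bins, 93 from 75 Mb and 120 below it, or 14.9% and 14.1% of the bins assessed. The higher share thus lay from 75 Mb in this list and below 75 Mb in the list from all 15 cells. Its longest 8-cell run was from 115920001 to 118240000 at Gpc5 and Gpc6, with 29 bins, ahead of 21 bins at Wnt5a. Of 1446 bins assessed at both stages, 199 were late in 8-cell and 134 in 4-cell embryos. Shared between the stages were 57, which is 28.6% of the 8-cell and 42.5% of the 4-cell late bins. They include 7 runs. The longest was from 116560001 to 118160000 over Gpc6, with 20 bins and a mean of 69.5% unreplicated in 8-cell embryos and 66.7% in 4-cell embryos. The second was from 10160001 to 11360000 at Fhit, with 15 bins and 66.2% unreplicated in 8-cell and 86.7% in 4-cell embryos. The others began at 36640001, 42080001, 71920001, 85280001 and 94880001 and held 3 to 5 bins each. The Wnt5a run was absent from the 4-cell list, which rests on 1 cell per embryo. Embryo 6 is 1 of the 2 embryos set apart above. The cell of embryo 2 had 15 unreplicated bins below 75 Mb and 17 from 75 Mb. Most 4-cell late bins thus rest on the cells of embryos 6 and 12. Neither the list nor the overlap was made without embryo 6.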

How the data were processed

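Per the file headers, the authors deposited a replication state for each 80-kb bin and cell (1 replicated, -1 not replicated, 0 no call), and a table with each cell's replication score as a percent, a noise score (MAD), its embryo and its batch. Per the submitters' processing notes the bins follow mm9. Aligner and state caller: not given in the sources used here. Read depth is unknown. Per the labels' protocols, DNA of single blastomeres was amplified over the whole genome before sequencing. The deposited percent of each cell was recomputed from the states and matched within 4.98e-09 points. Cell values were averaged per embryo. Stage and part comparisons used limma 3.58.1 (R 4.3.3) over all chromosome parts, chromosomes or windows, with Benjamini-Hochberg adjustment. A window needed at least 6 called bins in a cell and 8 such cells per stage. The earlier batch holds 4-cell cells only. The fits were tested on simulated data. No mm9 annotation was used. Listed genes were placed on mm9 from memory, aided by RefSeq GRCm38.p6 positions and remembered offsets between the builds, and rounded to 0.1 Mb. The placement was not checked against an independent source, and each locus was widened by 0.5 Mb on either side. The text names the 5 latest and 5 earliest windows of each part, the longest and shared late runs, and listed genes. The members and lists were chosen with earlier results of these data known. P-values measure the spread between these embryos, which limma pools in part over the parts, chromosomes or windows tested. Embryos counted equally, whether with 1 mid-S cell, as 8-cell embryo 2, or with 7, as 8-cell embryo 1.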

Additional observations from a re-analysis of the deposited data

Results flagged for a closer look

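In 12 of 48 groups of embryos examined on chromosome 14, 1 embryo lay far from the others by Dixon's criterion, which chance alone meets in about 1 of 20 groups. All 12 were single windows close to 0% or 100% replicated, where most embryos tie. At the 8-cell stage the early windows of the proximal part were lower in 1 embryo each: 91.7% in embryo 4 from 21000001, 83.3% in embryo 5 from 27000001, 96.2% in embryo 3 from 32000001, 66.7% in embryo 12 from 65000001 and 89.7% in embryo 5 from 70000001, with all others at 90.5% or above. Late windows were higher in 1 embryo each: 12.5% in embryo 12 from 29000001, 26.9% in embryo 4 from 40000001, 25% in embryo 12 from 85000001 and 1.19% in embryo 1 from 117000001, with all others at 12.5% or below. At the 4-cell stage embryo 6 stood at 50% from 21000001, where the others were at 91.7% or above. Embryo 1 stood at 50% from 70000001, where the others were at 96.2% or above, and at 12.5% from 117000001, where the others were at 0%. These are the embryos whose cells carry long opposite stretches. No embryo was singled out in the values of the whole chromosome or of its parts.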

How the results depend on the processing

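The lag of the part from 75 Mb behind the part below it kept its direction and passed its test at both stages under every alternative with a test. Its size moved to -18.2 points in 8-cell embryos without cells with a run of 30 Mb or more in 1 state. For cells between 35% and 65% it was -17.5 points in 4-cell embryos. With the division at 80 Mb it was -25.4 points in 8-cell and -26.8 points in 4-cell embryos. Leaving out each embryo in turn gave -21.7 to -19.6 points at the 8-cell stage and -22.9 to -20.1 points at the 4-cell stage. Against the autosomes, the same step in 8-cell embryos gave -22.3 to -21.2 points for the distal part, -1.66 to -0.362 points for the proximal part and -10 to -9.35 points for the chromosome. In 4-cell embryos it gave -22.1 to -20 points for the distal part, -0.0501 to 1.9 points for the proximal part and -8.97 to -7.62 points for the chromosome. The proximal level also moved to -3.29 points in 8-cell embryos without cells with a run of 30 Mb or more in 1 state, and to -3.17 points in 4-cell embryos for cells between 35% and 65%, a change of sign. With the division at 80 Mb the distal part lay at -25.4 points at the 8-cell stage. The stage differences, none past its test, changed sign under some alternatives. The distal part differed by 0.127 points in the batch of the 8-cell cells, by 0.328 points without 4-cell embryo 6, and by -1.76 to 0.328 points over all embryos left out. The proximal part differed by 2.33 points in cells between 35% and 65%, and by -2.73 to -0.784 points with each embryo left out. The difference between the parts was -4.75 points in cells between 35% and 65%, -0.809 points without 4-cell embryo 3, -0.235 points without 4-cell embryo 7, at most 2.09 points with each embryo left out, 2.3 points in the batch of the 8-cell cells and 3.78 points without cells with such long runs. In the batch of the 8-cell cells, 13.7% of measured proximal windows were later at the 4-cell stage, against 30.9% with all embryos, with fewer embryos in the fit. The distal share there was 44.8% (13 of 29 measured windows) against 64% at the 4-cell stage. At the 8-cell stage it was 58.6% (17 of 29) against 74%, and the proximal share was 31.4% against 41.2%. Between stages, 1 of 80 measured chromosome 14 windows passed in that batch, from 118000001, at the end of Gpc6 (-53.3 points, limma adjusted p = 0.0239, 4 4-cell embryos). Those 4 embryos include embryos 1 and 6. The window's 4-cell mean was 64.4% in them, 39.1% in all 9 4-cell embryos and 28.8% without embryos 1 and 6. With each embryo left out, 0 to 1 of 118 windows passed, the 1 being the window at 53000001 without 8-cell embryo 2 (-38.5 points, limma adjusted p = 0.0385). The cause was not tested. Over all windows 5 passed, 3 to 22 under the other alternatives and 1 to 19 with 1 embryo left out. Late bins at the 8-cell stage numbered 83 in cells over 80%, 0 at a share of 80%, and 213 without cells of few changes, where the 4-cell stage had 134. Fits without a trend of the spread, and means without 4-cell embryos 1 and 6, were added after seeing the data. No paired analysis was possible because the numbers in the labels name cells and do not pair embryos of the stages.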
